A study of Mus musculus with 6 samples.

Results

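Solute carriers of the sugar, nucleotide and organic solute families were followed in B16F10, a mouse melanoma cell line, across 3 wild-type (WT) and 3 ZBTB5-S127A (S127A) RNA-seq libraries. The members were all symbols of the deposited table in the families SLC2, SLC5, SLC10, SLC13, SLC16, SLC17, SLC19, SLC22, SLC23, SLC28, SLC29, SLC33 and SLC37 and in SLC35A to SLC35F, which gave 113 of 14915 symbols. The choice was by family name, though earlier results of these data were known when it was made. The series asks how phosphorylation of ZBTB5, a zinc finger transcription factor, at serine S127 bears on mTORC1 activation in inflammation, and S127A cells carry alanine there. Both groups were treated with TNFα, an inflammatory cytokine, while amino acids were limited. Each value below is thus a difference between WT and S127A libraries under that treatment and not a response to it. How the substitution was introduced, and whether the S127A cells are 1 clone, is not given in the sources used here. Nothing in the labels says that the 3 libraries of a group came from separate cultures, and p-values then measure only the spread between these samples, possibly a technical one.

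Solute carriers are membrane proteins that move small molecules across the plasma membrane or the membranes of organelles. Glucose enters most cells through facilitative SLC2 carriers, lactate leaves or enters through proton-linked SLC16 carriers, and nucleosides are taken up for salvage through SLC28 and SLC29 carriers. SLC35 carriers bring nucleotide sugars and related donors into the Golgi and the endoplasmic reticulum, where glycans are built. Melanoma cells, like many tumour cells, are known for high glucose uptake and lactate export.

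Levels are given as TPM, a transcript abundance that is corrected for gene length and so can be set side by side between genes. Differences are log2 values of TPM + 1, S127A minus WT, a scale on which changes of low genes come out too small, and adjusted p-values are from limma over all tested genes. A gene was tested at a mean of at least 1 TPM over the 6 libraries, and an adjusted p under 0.05 passed. The depth behind the TPM values is unknown, so the spread between libraries is the error used, as mean ± SD with n = 3. In such bulk samples, fewer cells of a type and less RNA per cell cannot be told apart.

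The libraries of the 2 groups differed far beyond these families. Of 12 melanocyte markers, 12 were lower in the S127A libraries, and their summed level was 19668 to 19853 TPM in WT against 116 to 124 TPM in S127A. SOX10, a transcription factor that defines the melanocyte lineage, stood at 341 ± 4.64 TPM in WT and at 0.603 ± 0.116 TPM in S127A, and the lineage factor MITF at 143 ± 9.67 and 8.17 ± 0.487 TPM. GPNMB, at 88.0 ± 1.85 TPM, made up most of the S127A sum, and the pigment genes PMEL, DCT and TYRP1 were at most 7.71 TPM there on average. Of 10 fibroblast markers, 10 were listed and 6 tested, 5 of them higher and 1 lower, with sums of 16.2 to 17.2 TPM in WT against 301 to 313 TPM in S127A. LUM and THY1 were at 0 in the 3 S127A libraries and DCN was at 0 in the 3 WT libraries. The 8 immune markers listed summed to at most 8.28 TPM in WT against 51.7 TPM in S127A, and of the pair tested CD14 rose from 0 to 45.1 ± 1.77 TPM and CD68 fell from 7.64 ± 0.601 to 4.69 ± 0.409 TPM, with PTPRC at no more than 0.0567 TPM in either mean and AIF1 at 0 in all 6 libraries. The 9 endothelial or epithelial markers listed summed to at most 1.76 TPM in WT against 64.1 TPM in S127A, most of it KRT18 (62.8 ± 0.362 TPM in S127A). ZBTB5 itself stood at 15.5 ± 0.54 TPM in WT against 8.90 ± 0.569 TPM in S127A, a level that does not test the substitution. The markers moved with every difference below, and their part in those differences was not tested.

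Of the 113 members, 56 reached a mean of 1 TPM and were tested, and 57 lay below it. Among those 56, 51 changed (91.1%, against 90.0% of all 10348 tested genes). In S127A 23 were higher (41.1%, against 40.2% of all tested genes) and 28 lower, or 1 in 2 (against 49.8%). Changes of at least 2-fold on the scale used numbered 8 higher (14.3%, against 15.5% of all tested genes) and 12 lower (21.4%, against 19.9%). These shares lie close to the background, so the counts over the families together are no result about solute carriers. Of the tested members, 11 had a mean below 1 TPM in 1 group and passed the filter only through the other group. A difference was thus built in for them, and each changed at least 2-fold. Their share over all tested genes was not counted. The median log2 difference was −0.08 over the members and −0.12 over all tested genes. Scaling moved both, and with quantile normalization, which shifted the median of all genes by 0.11, they were 0.03 and −0.01. Exons of 16 tested members overlap another gene in GENCODE, and the overlap is named below for only some of them. Single families and members departed from this picture in size and direction, as the plot of log2 differences by family shows.

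**Figure D1:**
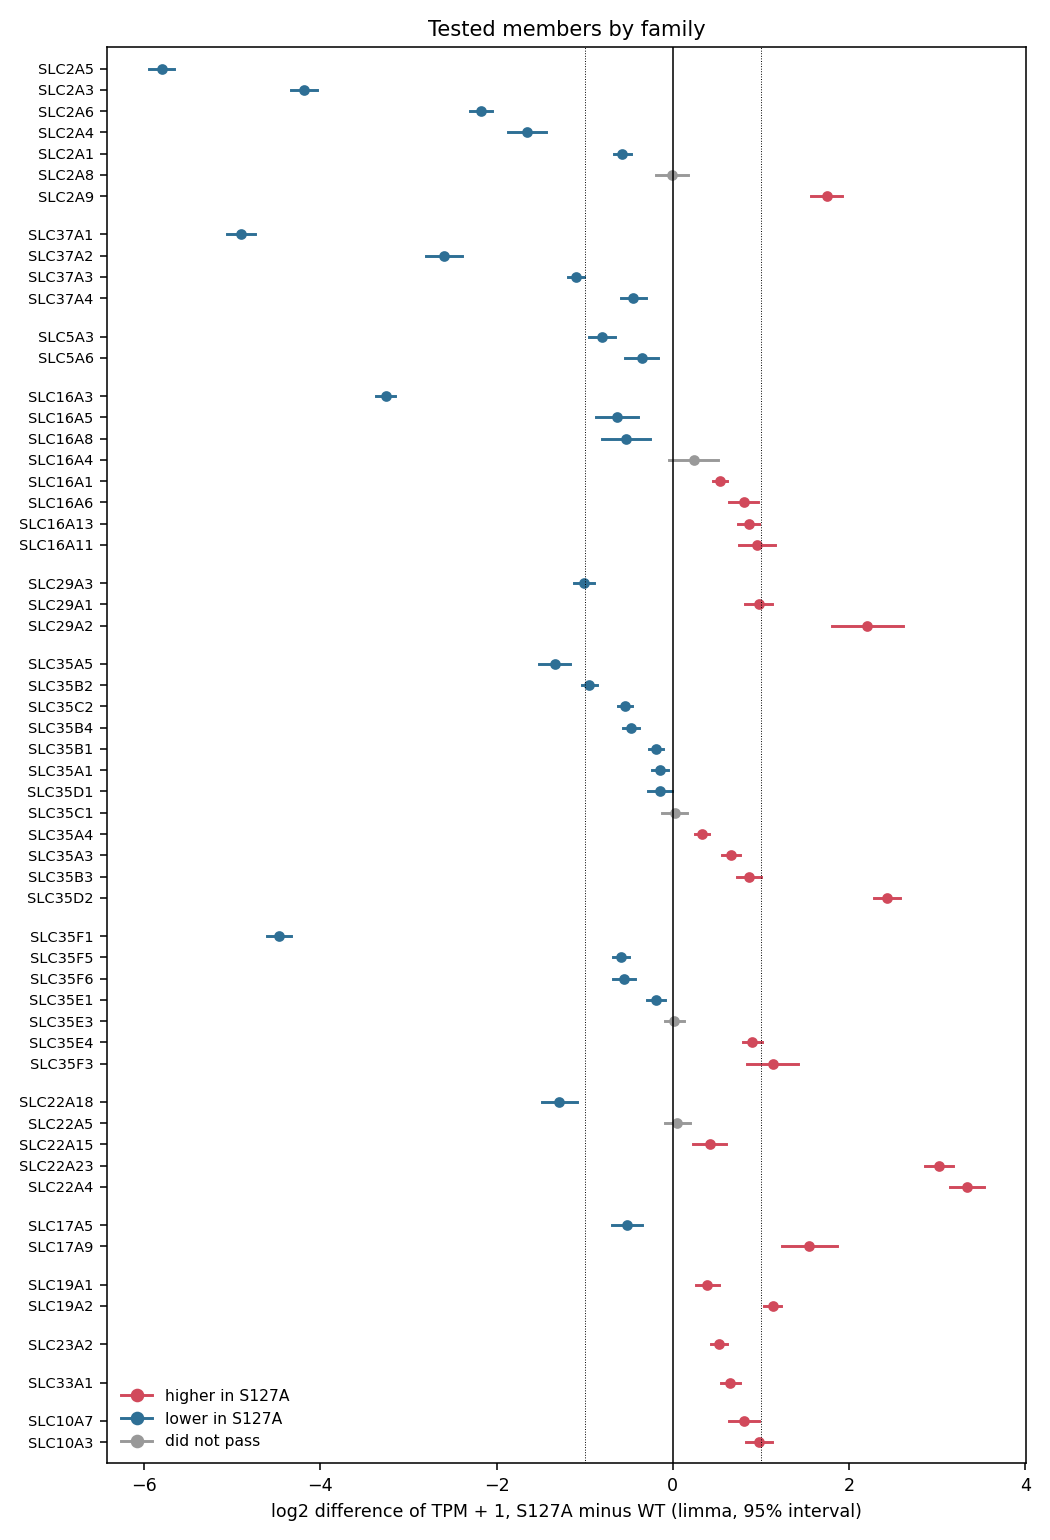
Log2 difference of TPM + 1 (S127A minus WT) of the 56 tested members, grouped by family, with points for the limma estimate and bars for its 95% interval. Dotted lines mark a 2-fold change, and the 20 members beyond them lie on both sides, from SLC2A5 at −5.80 to SLC22A4 at 3.33.

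The facilitative sugar carriers of the SLC2 family included several of the largest falls. Of 12 listed members 7 were tested, and 5 fell, 1 rose and 1 did not pass, where 40.2% of all tested genes were higher and 49.8% lower, with a median log2 difference of −1.65 beside −0.12 over all. The same counts were found with each of 3 other scalings. The family's summed level was 287 ± 2.19 TPM in WT against 102 ± 3.26 TPM in S127A. The plot of sugar carriers by library shows the members' values.

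SLC2A5, the fructose carrier of the family (ENSMUSG00000028976.10, chromosome 4, 150119283 to 150144169, plus strand, mm10), stood at 63.9, 63.1 and 62.0 TPM in WT and at 0.23, 0.11 and 0.11 TPM in S127A. The S127A libraries were all near 0, at 0.238% of the WT mean. It fell by 5.80 in log2 units (SE 0.0644, limma's adjusted p = 4.17e-14), the largest change among the 56 tested members on that scale, while SLC37A1 fell to a smaller share of its WT mean, 0.0677%.

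SLC2A3, the high-affinity glucose carrier GLUT3 (chromosome 6, 122727809 to 122801640, minus strand), was at 19.2, 17.99 and 19.4 TPM in WT and at 0.09 TPM in each S127A library. The groups lay far apart, and it fell by 4.19 (SE 0.0662, adjusted p = 4.43e-13). SLC2A6, known as a hexose carrier of intracellular membranes and named GLUT6 (chromosome 2, 27021363 to 27027998, minus strand), was the most abundant SLC2 member in WT, at 111, 111 and 118 TPM. In S127A it stood at 22.0, 25.5 and 25.5 TPM, and it fell by 2.18 (SE 0.0576, adjusted p = 2.63e-11). SLC2A4, the insulin-responsive carrier GLUT4, fell from 2.58 ± 0.375 to 0.133 ± 0.0737 TPM.

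SLC2A1, the basal glucose carrier GLUT1 (ENSMUSG00000028645.11, chromosome 4, 119108711 to 119137983, plus strand), changed far less than SLC2A3. Its libraries held 79.1, 76.8 and 71.0 TPM in WT against 50.3, 50.9 and 50.2 TPM in S127A. The groups did not overlap, and it fell by 0.57 (SE 0.0433, adjusted p = 2.13e-07), to 66.7% of the WT mean. SLC2A8, an intracellular hexose carrier, stood at 8.27 ± 0.674 TPM in WT against 8.22 ± 0.787 TPM in S127A and did not pass (log2 difference −0.01, 95% interval −0.19 to 0.17, adjusted p = 0.92).

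SLC2A9, which carries urate, was the 1 SLC2 member that rose. Its WT libraries held 4.06, 4.88 and 5.31 TPM and its S127A libraries 17.7, 18.2 and 18.7 TPM, a rise of 1.74 on the log2 scale (SE 0.0807, adjusted p = 3.02e-09) and of 3.83-fold in mean TPM. The make-up of the family differed as a result. SLC2A6 held 39.5% ± 1.45 of the summed SLC2 level in WT and 23.8% ± 1.24 in S127A (SD, n = 3), SLC2A5 21.99% ± 0.359 and 0.149% ± 0.0741. SLC2A1 held 26.4% ± 1.46 in WT and 49.5% ± 1.52 in S127A, and SLC2A9 1.66% ± 0.226 and 17.8% ± 0.203. The remaining 5 listed members, SLC2A2, SLC2A7, SLC2A10, SLC2A12 and SLC2A13, did not exceed 0.38 TPM in any library.

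**Figure D2:**
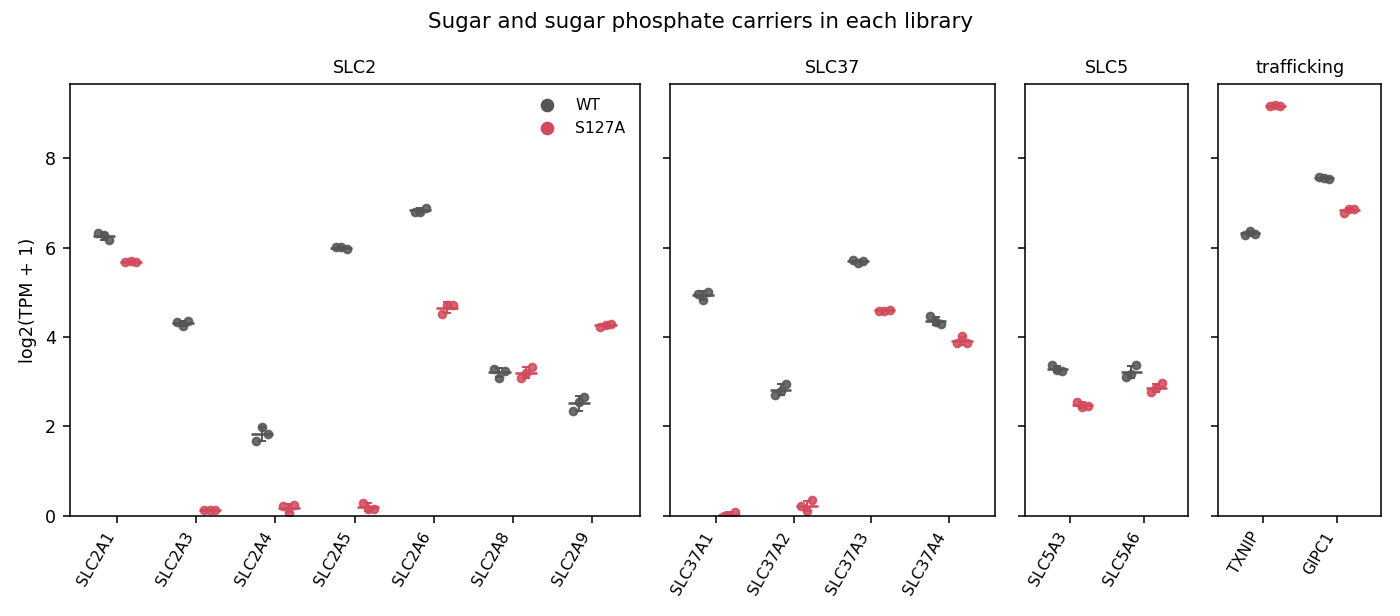
Level on the log2(TPM + 1) scale of sugar, sugar phosphate and sodium-coupled carriers and of 2 genes of carrier trafficking in each WT (grey) and S127A (red) library, with the mean and SD of 3 libraries. SLC2A3, SLC2A4, SLC2A5, SLC37A1 and SLC37A2 lie near 0 in the 3 S127A libraries, and SLC2A9 and TXNIP are higher there.

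The promoter of SLC2A1 is shown, and a hypoxia-type motif, ACGTG on either strand, lies in it 36 bases before the start. Any part of the motif in the level of SLC2A1 was not tested. The sequence is RefSeq's for GRCm38.p6 (mm10), chr4:119108495-119108794, plus strand, 250 bases before to 50 bases after the start, 5′ to 3′, with the motif in capitals.
SLC2A1: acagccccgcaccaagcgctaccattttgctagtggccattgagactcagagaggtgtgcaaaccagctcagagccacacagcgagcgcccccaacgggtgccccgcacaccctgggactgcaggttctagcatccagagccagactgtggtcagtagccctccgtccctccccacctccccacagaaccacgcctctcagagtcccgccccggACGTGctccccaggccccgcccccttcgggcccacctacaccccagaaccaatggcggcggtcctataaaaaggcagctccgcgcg
The letters ACGTG occur in 19.6% of all 32851 RefSeq promoters of this length, in 26.1% of those of tested genes and in 23.1% of the 65 promoters of 47 tested members that the table holds. A match is a description of the sequence and not a binding site.

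The SLC37 family carries glucose 6-phosphate and other sugar phosphates. It was lower in S127A in 4 of 4 tested members, where 49.8% of all tested genes were lower. The median log2 difference of these members was −1.85, beside −0.12 over all tested genes, and stayed negative with each scaling. Their summed level was 106 ± 3.38 TPM in WT against 37.5 ± 0.718 TPM in S127A. SLC37A1, a phosphate-linked glucose 6-phosphate antiporter (chromosome 17, 31286792 to 31350739, plus strand), stood at 29.97, 27.4 and 31.3 TPM in WT and at 0, 0 and 0.06 TPM in S127A. It fell by 4.90 (SE 0.0724, adjusted p = 2.70e-13). Its exons overlap those of AC154652.2 on the opposite strand, and the strand setting of the counting is not given in the sources used here. SLC37A2, a close relative with the same activity, had 5.53, 5.96 and 6.73 TPM in WT against 0.16, 0.08 and 0.27 TPM in S127A (log2 shift −2.60, adjusted p = 3.15e-10).

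The other SLC37 members kept a larger part of their level. SLC37A3, a lysosomal member, was at 51.5, 49.8 and 51.3 TPM in WT against 23.1, 23.02 and 23.5 TPM in S127A, and it fell by 1.10 (SE 0.039, adjusted p = 3.06e-10). SLC37A4, the glucose 6-phosphate carrier of the endoplasmic reticulum, held 21.1, 19.1 and 18.7 TPM in WT against 13.6, 15.2 and 13.6 TPM in S127A, and it fell by 0.45 (SE 0.0647, adjusted p = 5.57e-05). The SLC37 family thus held 2 members near 0 in S127A and 2 at 45.6% and 72.0% of their WT means.

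Both tested sodium-coupled SLC5 carriers were lower in S127A, as were 49.8% of all tested genes. SLC5A3, which brings myo-inositol into the cell, fell from 8.80 ± 0.465 to 4.59 ± 0.232 TPM (log2 shift −0.81, adjusted p = 4.38e-07). Its exons overlap those of Mrps6 on the same strand, which leaves reads of the pair hard to assign. SLC5A6, the carrier of biotin and pantothenate, fell from 8.33 ± 0.945 to 6.30 ± 0.48 TPM (log2 shift −0.35, adjusted p = 0.00226). With quantile normalization SLC5A6 did not pass (adjusted p = 0.0818), and its exons overlap those of Atraid on the opposite strand. The 9 other SLC5 members listed, the glucose carriers SLC5A1 and SLC5A2 among them, did not exceed 0.79 TPM in any library.

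Genes that act on sugars after entry, and proteins that place sugar and lactate carriers in the membrane, were taken from 2 lists of known partners. Of 15 tested genes of sugar phosphorylation and entry, 3 rose and 11 fell, where 40.2% of all tested genes were higher and 49.8% lower. GALK1, which phosphorylates galactose, fell from 211 ± 3.65 to 40.3 ± 1.96 TPM, SORD, the sorbitol dehydrogenase that makes fructose, from 73.3 ± 1.63 to 7.53 ± 0.513 TPM, and ISYNA1, the myo-inositol synthase, from 41.2 ± 2.11 to 1.23 ± 0.291 TPM. PGM1, a phosphoglucomutase symbol whose human and mouse use is crossed with PGM2, fell from 192 ± 6.03 to 19.9 ± 0.95 TPM. Of 8 tested chaperones and regulators of SLC2 and SLC16 proteins, 2 rose and 6 fell, against the same shares. TXNIP, an arrestin-like protein that promotes the internalisation of glucose carriers, rose from 78.7 ± 2.59 to 577 ± 5.31 TPM (log2 shift 2.86, adjusted p = 3.94e-14). GIPC1, a PDZ protein that binds SLC2A1, fell from 188 ± 2.65 to 114 ± 3.94 TPM.

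The monocarboxylate carriers of the SLC16 family went both ways in S127A. With 40.2% of all tested genes higher and 49.8% lower, 4 of 8 tested members were higher and 3 lower. Their summed level differed little, at 180 ± 4.08 TPM in WT against 156 ± 1.88 TPM in S127A, while the 2 main lactate carriers moved in opposite directions. SLC16A3, known as MCT4, the lactate exporter of strongly glycolytic cells (ENSMUSG00000025161.16, chromosome 11, 120948480 to 120960868, plus strand), stood at 84.9, 83.7 and 78.7 TPM in WT and at 7.73, 7.98 and 7.48 TPM in S127A. It was 10.7-fold lower in mean TPM and fell by 3.26 in log2 units (SE 0.0481, adjusted p = 2.70e-13). SLC16A1, known as MCT1, which carries lactate, pyruvate and ketone bodies in either direction (ENSMUSG00000032902.1, chromosome 3, 104638668 to 104658462, plus strand), stood at 68.8, 64.5 and 66.3 TPM in WT and at 98.8, 95.5 and 96.3 TPM in S127A. It rose by 0.54 (SE 0.036, adjusted p = 7.72e-08), 1.46-fold in mean TPM.

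In WT the levels of both lactate carriers were thus of the same order, and in S127A SLC16A1 stood far above SLC16A3. SLC16A3 held 45.7% ± 1.25 of the summed SLC16 level in WT and 4.96% ± 0.212 in S127A, SLC16A1 36.9% ± 0.696 and 62.2% ± 0.718. The plot of family composition shows this beside the SLC2 and SLC37 families.

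**Figure D3:**
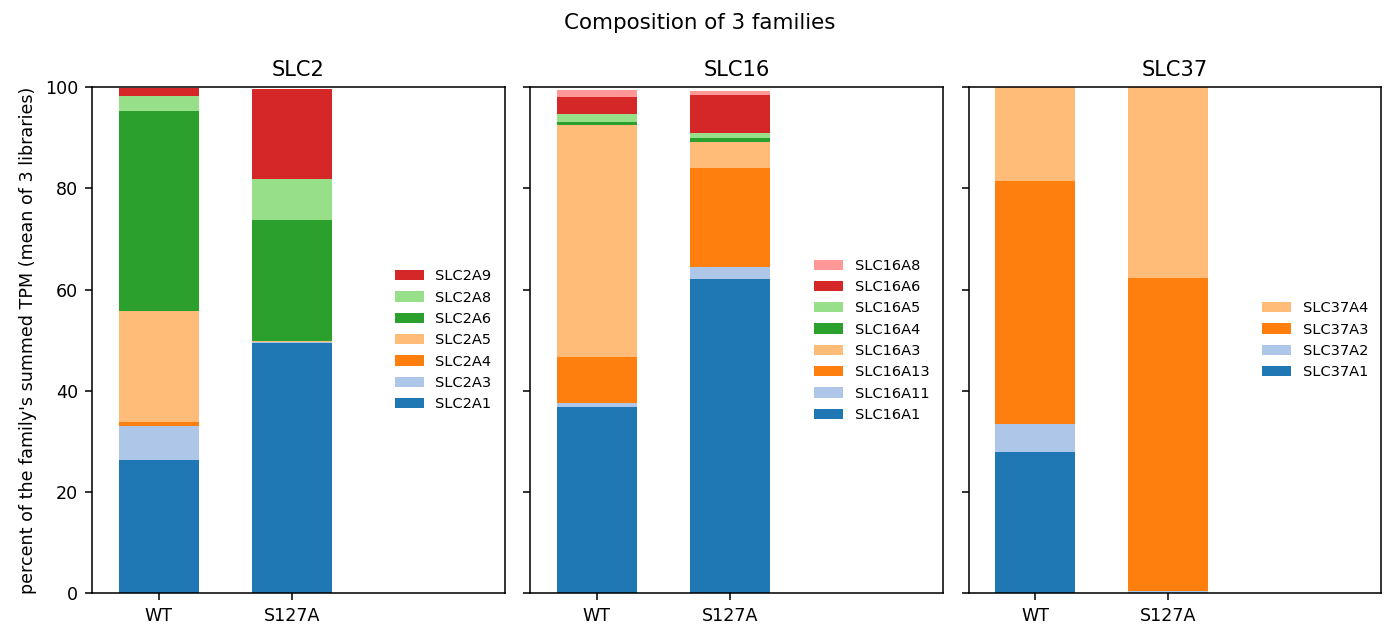
Percent of the summed TPM of the SLC2, SLC16 and SLC37 families held by each tested member, as the mean of 3 WT and of 3 S127A libraries; members below a mean of 1 TPM make up the small rest to 100. SLC16A1 rises from 36.9% to 62.2% of its family and SLC2A1 from 26.4% to 49.5%, while SLC37A1 and SLC2A5 are not visible in S127A.

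The promoters of the SLC16 pair are shown because the genes moved in opposite directions and both hold ACGTG. They are RefSeq sequences of GRCm38.p6, 5′ to 3′ on the plus strand, from 250 bases before to 50 bases after the start, at chr11:120948817-120949116 for SLC16A3 and chr3:104638414-104638713 for SLC16A1. Capitals mark matches to ACGTG and to the E-box, whose letters are CACGTG. The M-box (TCATGTG) and the AP-1 motif (TGACTCA) were also searched, each on both strands.
SLC16A3: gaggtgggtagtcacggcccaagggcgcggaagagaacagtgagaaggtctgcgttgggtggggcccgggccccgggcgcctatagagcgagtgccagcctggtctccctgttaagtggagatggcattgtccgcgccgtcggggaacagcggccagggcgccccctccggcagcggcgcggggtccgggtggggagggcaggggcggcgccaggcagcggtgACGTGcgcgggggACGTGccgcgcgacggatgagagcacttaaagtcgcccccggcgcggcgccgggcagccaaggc
SLC16A1: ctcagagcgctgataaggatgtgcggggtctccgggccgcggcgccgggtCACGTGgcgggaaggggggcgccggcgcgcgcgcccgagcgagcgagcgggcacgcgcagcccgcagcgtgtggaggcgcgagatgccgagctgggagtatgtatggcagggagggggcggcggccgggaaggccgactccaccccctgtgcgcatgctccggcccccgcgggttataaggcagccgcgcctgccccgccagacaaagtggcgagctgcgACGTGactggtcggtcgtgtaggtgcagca
ACGTG lies 27 and 14 bases before the start of SLC16A3. In SLC16A1 an E-box, which contains ACGTG on each strand, lies 200 bases before the start, and a further ACGTG begins at base 21 after it. An E-box is found in 7.15% of all promoters of this length, 10.1% of those of tested genes and 10.8% of those of tested members. For the E-box, members thus lie near the tested genes. The M-box is found in 6.15% of member promoters, or 4 of 65, against 2.05% of those of tested genes and 3.77% of all promoters. AP-1 letters are in 3.08% of member promoters against 3.59% of those of tested genes, and NF-kB-type letters in 1.54% against 1.41%. The promoters of SLC16A3 and SLC16A1 both hold ACGTG, at different positions. Any part of these letters in the changes of the genes was not tested.

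Among the other SLC16 members, those that rose were low or moderate in level. SLC16A13 rose from 16.5 ± 1.14 to 30.6 ± 0.289 TPM (log2 shift 0.86, adjusted p = 5.23e-08) and its neighbour on chromosome 11, SLC16A11, from 1.35 ± 0.14 to 3.59 ± 0.464 TPM (0.96, adjusted p = 1.69e-06). SLC16A6, which is linked to ketone body export, rose from 6.30 ± 0.52 to 11.7 ± 0.857 TPM (0.80, adjusted p = 1.51e-06), and its exons overlap those of Arsg and Amz2. SLC16A5 fell from 2.74 ± 0.396 to 1.41 ± 0.285 TPM (−0.64, adjusted p = 0.000201). SLC16A8, a lactate carrier of the retinal pigment epithelium, fell from 2.28 ± 0.226 to 1.29 ± 0.42 TPM (−0.53, adjusted p = 0.00163) and did not pass with quantile normalization (adjusted p = 0.111). SLC16A4 stood at 1.11 ± 0.312 TPM in WT against 1.48 ± 0.325 TPM in S127A and did not pass (0.24, 95% interval −0.04 to 0.51, adjusted p = 0.0948). It passed with trimmed mean scaling (adjusted p = 0.0449), with quantile normalization (0.53, adjusted p = 0.00125), when either WT replicate 1 (adjusted p = 0.017) or S127A replicate 2 (adjusted p = 0.0446) was left out.

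The glycoproteins EMB and BSG, which carry SLC16 proteins to the cell surface, were lower in S127A. EMB, embigin, stood at 46.8 ± 3.4 TPM in WT against 0.12 ± 0.052 TPM in S127A, and it fell by 5.41 (adjusted p = 1.45e-13). BSG, basigin, the partner of SLC16A1 and SLC16A3, fell from 769 ± 28.8 to 361 ± 9.21 TPM (log2 shift −1.09, adjusted p = 1.04e-10). Of 8 tested genes of lactate, pyruvate and ketone metabolism, 1 rose and 6 fell, against 40.2% higher and 49.8% lower over all tested genes. LDHB, the lactate dehydrogenase subunit that favours lactate use, fell from 243 ± 1.07 to 0.273 ± 0.127 TPM, and LDHA, the subunit that favours lactate formation, from 3235 ± 89.7 to 723 ± 14.7 TPM. The ketone body enzymes BDH1 and OXCT1 fell from 61.8 ± 1.77 to 0.0767 ± 0.0635 TPM and from 494 ± 6.68 to 69.5 ± 1.5 TPM.

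**Figure D4:**
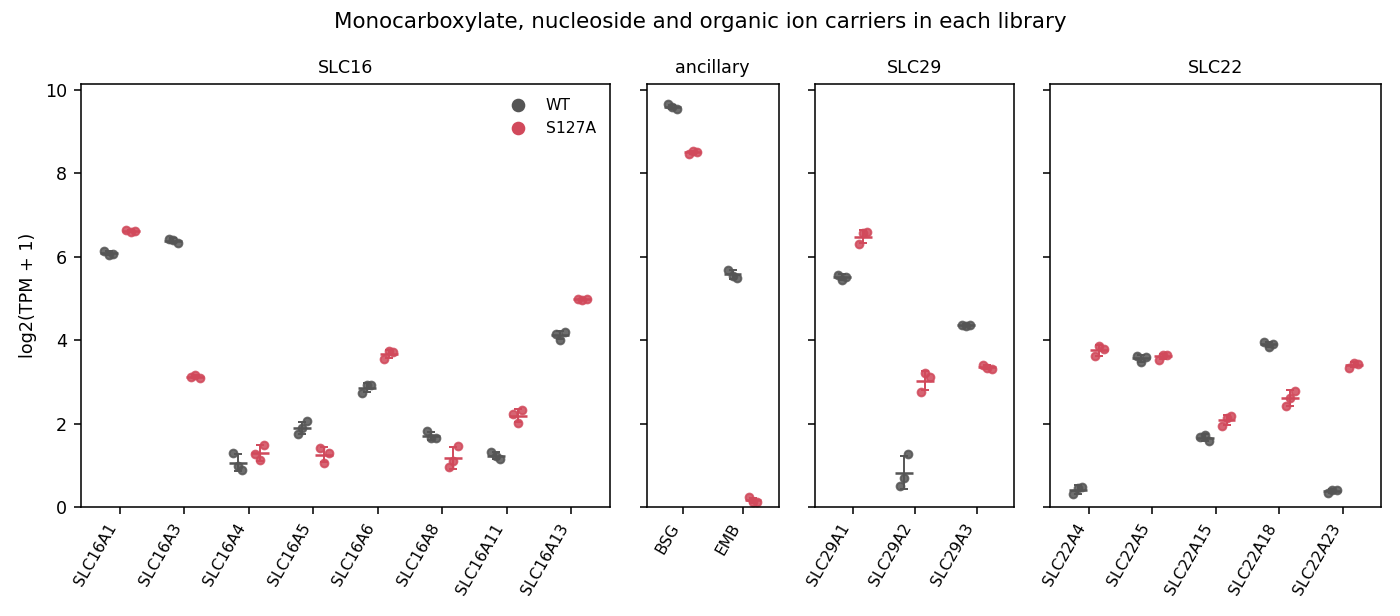
Level on the log2(TPM + 1) scale of the tested SLC16, SLC29 and SLC22 members and of the SLC16 ancillary proteins BSG and EMB in each WT (grey) and S127A (red) library, with the mean and SD of 3 libraries. SLC16A1 and SLC16A3 move apart, SLC29A1 and SLC29A2 are higher and SLC29A3 lower in S127A, and SLC22A4 and SLC22A23 rise from near 0.

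The nucleoside carriers changed in both directions. The 2 equilibrative carriers of the cell surface rose and the lysosomal carrier SLC29A3 fell, against 40.2% higher and 49.8% lower of all tested genes. SLC29A1, the main equilibrative nucleoside carrier of most cells (ENSMUSG00000023942.15, chromosome 17, 45585200 to 45599606, minus strand), stood at 46.4, 42.4 and 44.9 TPM in WT and at 78.3, 93.2 and 94.7 TPM in S127A. The S127A libraries were all above the WT libraries, and it rose by 0.97 (SE 0.0679, adjusted p = 1.07e-07). SLC29A2, which also carries nucleobases, held 0.43, 0.62 and 1.41 TPM in WT against 5.81, 8.29 and 7.67 TPM in S127A (log2 shift 2.21, SE 0.179, adjusted p = 4.08e-07). SLC29A3 held 19.6, 19.2 and 19.7 TPM in WT against 9.57, 9.14 and 8.91 TPM in S127A, and it fell by 1.01 (SE 0.0524, adjusted p = 8.30e-09). SLC29A4 and the 3 concentrative SLC28 carriers did not exceed 0.31 TPM in any library.

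Enzymes of nucleoside and base salvage were mostly higher in the same libraries, with 12 of 17 tested genes higher and 2 lower, where 40.2% of all tested genes were higher and 49.8% lower, and a median log2 difference of 0.42. The number higher was 13 with each of the 3 other scalings. UPP1, the uridine phosphorylase, rose from 1.97 ± 0.41 to 87.6 ± 6.23 TPM, PNP, the purine nucleoside phosphorylase, from 18.1 ± 0.616 to 60.5 ± 1.09 TPM, and APRT, the adenine salvage enzyme, from 126.8 ± 3.42 to 406 ± 26.1 TPM. SAMHD1, which hydrolyses deoxynucleotides, rose from 38.1 ± 0.429 to 80.2 ± 3.14 TPM. Those that fell were chosen for mention once their values were known, and are the thymidine kinase TK1 (197 to 93.3 TPM) and HPRT1 (235 to 187 TPM).

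The nucleotide sugar carriers SLC35A to SLC35D were the most abundant group, with a summed level of 522 ± 6.85 TPM in WT against 499 ± 3.89 TPM in S127A. Of 12 tested members 4 rose, 7 fell and 1 did not pass, where 40.2% of all tested genes were higher and 49.8% lower. The median log2 difference of the members was −0.15. Most of these differences were small, and the number lower depended on the scaling, with 5 with trimmed mean scaling, 4 with quantile normalization and 6 when totals were made equal, against 4 higher in each. SLC35A2, the UDP-galactose carrier, is not analysed here.

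SLC35D2, a Golgi carrier of UDP-N-acetylglucosamine (chromosome 13, 64096308 to 64129368, minus strand), had the largest change of this group. It held 3.51, 3.34 and 3.83 TPM in WT against 22.6, 24.9 and 23.1 TPM in S127A, a 6.61-fold rise in mean TPM (log2 shift 2.43, SE 0.0655, adjusted p = 3.11e-11). SLC35A3, a further carrier of UDP-N-acetylglucosamine, rose from 45.7 ± 2.23 to 72.7 ± 2.96 TPM (0.66, adjusted p = 1.20e-07). The known UDP-N-acetylglucosamine carriers SLC35D2 and SLC35A3 were thus both higher, whereas SLC35B4, which carries this sugar and UDP-xylose, fell from 56.2 ± 1.94 to 40.1 ± 0.394 TPM (−0.48, adjusted p = 4.48e-07). SLC35A5, an incompletely described Golgi member, showed the largest fall of the group, with 23.5, 18.7 and 20.3 TPM in WT against 7.30, 7.67 and 7.77 TPM in S127A (−1.34, SE 0.0775, adjusted p = 2.03e-08).

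Both carriers of PAPS, the sulphate donor of the Golgi, changed, in opposite directions. SLC35B2 fell from 73.4 ± 1.19 to 37.6 ± 1.16 TPM (log2 shift −0.95, adjusted p = 8.46e-10) and SLC35B3 rose from 19.2 ± 1.66 to 35.6 ± 0.45 TPM (0.86, adjusted p = 1.11e-07). SLC35B2 stood above SLC35B3 in each WT library, and the ranges of the pair nearly met in S127A. SLC35B1, which exchanges ATP and ADP across the endoplasmic reticulum, was the most abundant member of all the families in S127A apart from SLC16A1, at 90.6 ± 2.58 TPM after 104 ± 3.83 TPM in WT.

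The CMP-sialic acid carrier SLC35A1 held 38.8, 39.7 and 39.6 TPM in WT against 34.4, 36.4 and 35.5 TPM in S127A (log2 shift −0.15, SE 0.0398, adjusted p = 0.00451). It did not pass with trimmed mean scaling (−0.06, adjusted p = 0.213) and quantile normalization (−0.08, adjusted p = 0.0708), over adjusted p-values up to 0.213 in 17 alternatives. SLC35B1 did not pass with quantile normalization (adjusted p = 0.0833). SLC35D1, a carrier of UDP-glucuronic acid, passed narrowly (11.1 ± 0.553 to 9.98 ± 0.433 TPM, log2 shift −0.14, adjusted p = 0.0467) and lost its call in 10 of 17 alternatives, leaving out any 1 of 4 libraries among them. The GDP-fucose carrier SLC35C1 stood at 19.8 ± 1.61 TPM in WT against 20.1 ± 1.03 TPM in S127A and did not pass (95% interval −0.13 to 0.16), while SLC35C2, which is linked to fucosylation, fell from 62.7 ± 1.2 to 42.8 ± 0.781 TPM (−0.54, adjusted p = 7.64e-08). SLC35A4 rose from 65.9 ± 2.13 to 82.8 ± 1.14 TPM (0.33, adjusted p = 5.77e-06), and its exons overlap those of Apbb3 on the opposite strand.

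Of 20 tested enzymes that make nucleotide sugars and PAPS, 7 rose and 12 fell, where 40.2% of all tested genes were higher and 49.8% lower. Their median log2 difference was −0.39, beside −0.12 over all tested genes. UGDH, which makes UDP-glucuronic acid, rose from 63.6 ± 1.2 to 252 ± 8.51 TPM, whereas UGP2, which makes UDP-glucose, fell from 420 ± 38.3 to 41.4 ± 2.34 TPM. UAP1L1, a relative of the enzyme that makes UDP-N-acetylglucosamine, fell from 262 ± 4.83 to 78.5 ± 2.27 TPM. CMAS, which makes CMP-sialic acid, fell from 160 ± 2.5 to 45.4 ± 3.73 TPM, a change of −1.80 on the log2 scale beside −0.15 for the carrier SLC35A1.

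The SLC35E and SLC35F members, whose substrates are mostly unknown, included 1 of the largest falls. SLC35F1 (chromosome 10, 52690533 to 53111622, plus strand) held 29.3, 28.5 and 28.8 TPM in WT against 0.31, 0.38 and 0.34 TPM in S127A, and it fell by 4.47 (SE 0.0614, adjusted p = 1.73e-13). SLC35F5 fell from 42.4 ± 1.27 to 27.7 ± 0.365 TPM and SLC35F6 from 25.4 ± 1.64 to 16.9 ± 0.342 TPM. SLC35E4 rose from 22.4 ± 0.987 to 42.7 ± 1.8 TPM (0.90, adjusted p = 1.33e-08) and SLC35F3, a reported thiamine carrier, from 0.283 ± 0.193 to 1.81 ± 0.358 TPM. SLC35E1 passed (−0.19, adjusted p = 0.00167) but not with trimmed mean scaling (adjusted p = 0.0542). SLC35E3 stood at 20.7 ± 0.877 and 20.9 ± 0.17 TPM and did not pass (95% interval −0.09 to 0.12, adjusted p = 0.774).

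**Figure D5:**
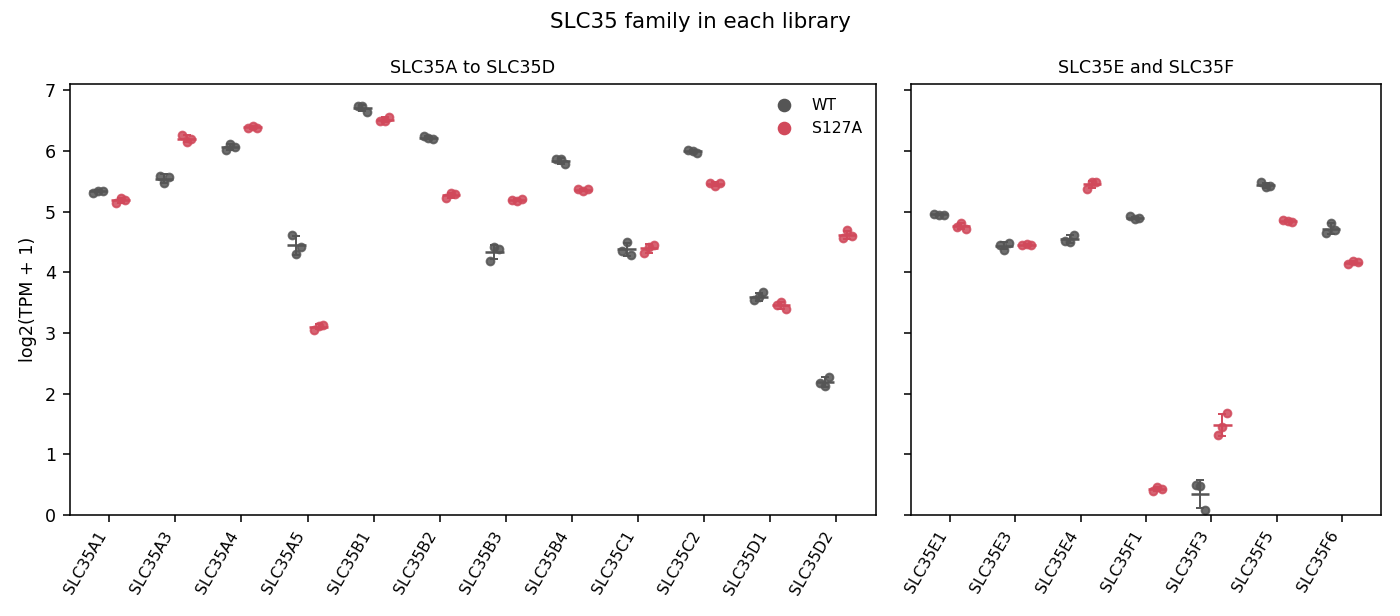
Level on the log2(TPM + 1) scale of the 19 tested SLC35 members in each WT (grey) and S127A (red) library, with the mean and SD of 3 libraries. Most members differ little between the groups, SLC35D2 is higher in S127A, and SLC35F1 lies near 0 there.

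The organic ion carriers of the SLC22 family held the largest rises. Of 17 listed members 5 were tested. Of these, 3 rose, 1 fell and 1 did not pass, where 40.2% of all tested genes were higher and 49.8% lower. SLC22A4, the ergothioneine carrier OCTN1 (ENSMUSG00000020334.6, chromosome 11, 53983123 to 54028090, minus strand), stood at 0.24, 0.38 and 0.41 TPM in WT and at 11.3, 13.6 and 12.8 TPM in S127A, a rise of 3.33 (SE 0.0873, adjusted p = 2.41e-11). Its neighbour and close relative SLC22A5, the carnitine carrier OCTN2 (chromosome 11, 53864542 to 53891660, minus strand), stood at 10.8 ± 0.66 TPM in WT against 11.3 ± 0.557 TPM in S127A and did not pass (log2 difference 0.05, 95% interval −0.09 to 0.19, adjusted p = 0.473). It passed with quantile normalization (0.15, adjusted p = 0.0387). Reads that the 2 relatives share could be split between them.

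The promoter of SLC22A4 is shown as that of the member with the largest rise. It is RefSeq's sequence for GRCm38.p6, chr11:54028055-54028354, minus strand, 5′ to 3′, from 250 bases before to 50 bases after the start, with an E-box that lies 228 bases before the start in capitals.
SLC22A4: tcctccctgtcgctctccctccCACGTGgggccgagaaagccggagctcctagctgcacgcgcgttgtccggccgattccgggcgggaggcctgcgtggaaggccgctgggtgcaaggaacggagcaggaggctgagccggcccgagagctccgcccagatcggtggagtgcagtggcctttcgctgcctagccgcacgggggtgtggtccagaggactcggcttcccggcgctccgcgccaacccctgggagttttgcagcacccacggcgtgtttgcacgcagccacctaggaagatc
Neither the M-box nor the AP-1 letters occur in this window.

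SLC22A23, a member without a settled substrate (chromosome 13, 34179158 to 34345182, minus strand), also rose from near 0, with 0.27, 0.33 and 0.33 TPM in WT against 9.14, 9.93 and 9.81 TPM in S127A (log2 shift 3.02, SE 0.0704, adjusted p = 9.22e-12). SLC22A18, an imprinted member (chromosome 7, 143473736 to 143499334, plus strand), fell, with 14.5, 13.4 and 14.0 TPM in WT against 4.38, 5.16 and 5.92 TPM in S127A (−1.29, SE 0.0879, adjusted p = 8.77e-08). SLC22A15 rose from 2.18 ± 0.162 to 3.27 ± 0.361 TPM (0.42, adjusted p = 0.000681). The 12 other SLC22 members listed did not exceed 0.83 TPM in any library.

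The SLC19, SLC23 and SLC33 families move vitamins and acetyl-CoA. Their tested carriers were each higher in S127A, as were 40.2% of all tested genes. SLC19A2, the thiamine carrier, held 30.7, 29.9 and 32.0 TPM in WT against 70.3, 66.4 and 69.6 TPM in S127A, a rise of 1.13 (SE 0.0414, adjusted p = 4.06e-10). SLC19A1, the reduced folate carrier, held 14.3, 15.8 and 16 TPM in WT against 19.8, 21.2 and 20.2 TPM in S127A, a rise of 0.39 (SE 0.0579, adjusted p = 6.87e-05). The groups of both SLC19 carriers did not overlap, which held for 51 of the 56 tested members and so does not set them apart. The share over all genes was not counted. SLC23A2, the ascorbate carrier of most tissues, held 25.6, 26.3 and 25.6 TPM in WT against 37.4, 36.4 and 38.7 TPM in S127A (0.52, SE 0.0424, adjusted p = 4.08e-07). SLC33A1, which brings acetyl-CoA into the endoplasmic reticulum, held 48.6, 44.0 and 49.9 TPM in WT against 76.3, 72.3 and 76.9 TPM in S127A (0.65, SE 0.0503, adjusted p = 2.60e-07). SLC5A6, described above, is a vitamin carrier that fell. SLC19A3, SLC23A1 and SLC23A3 did not exceed 1.12 TPM in any library.

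Of 15 tested genes that use these solutes, 4 rose and 9 fell, against 40.2% higher and 49.8% lower of all tested genes. ACLY, which makes cytosolic acetyl-CoA from citrate, fell from 430 ± 6.78 to 87.2 ± 2.33 TPM, and ACSS2, which makes it from acetate, from 30.8 ± 0.56 to 2.48 ± 0.52 TPM, in the libraries in which SLC33A1 rose. GGH, which trims folate polyglutamates, fell from 25.9 ± 2.2 to 0.05 ± 0.0625 TPM, and CPT1C, a carnitine palmitoyltransferase relative, from 37.9 ± 1.22 to 0.153 ± 0.133 TPM.

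The SLC17 and SLC10 families were sparse. SLC17A5, the lysosomal sialic acid exporter sialin, held 15.9, 17.2 and 15.7 TPM in WT against 11.6, 9.67 and 12.0 TPM in S127A, and it fell by 0.52 (SE 0.0776, adjusted p = 7.38e-05). SLC17A9, which loads nucleotides into vesicles, rose from 0.923 ± 0.348 to 4.62 ± 0.879 TPM (1.55, adjusted p = 9.86e-07). SLC17A8 was the 1 untested member with a group mean of at least 1 TPM, with 0.84, 1.18 and 1.75 TPM in WT against 0.36, 0.41 and 0.32 TPM in S127A. SLC10A3 rose from 14.9 ± 0.842 to 30.4 ± 2.59 TPM (0.98, adjusted p = 1.03e-07), and its exons overlap those of Ubl4a on the same strand. SLC10A7, which is tied to glycosylation in the Golgi, rose from 14.5 ± 0.551 to 26.1 ± 3.1 TPM (0.81, adjusted p = 1.45e-06). The bile acid carriers SLC10A1 and SLC10A2 and the 5 SLC13 dicarboxylate and sulphate carriers did not exceed 0.75 TPM in any library, and SLC5A7, SLC13A3, SLC17A3 and SLC17A6 were at 0 in all 6.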

How the data were processed

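RNA-seq libraries of 3 WT and 3 S127A samples were analysed from 1 table of TPM per gene symbol, which the authors deposited. The build mm10 is named in the submitters' processing notes, and the sources used here name no aligner, counter, annotation or strand setting. TPM keeps no depth, so no count test was possible and no counting interval is given. Library totals over the listed symbols were 862949 to 864529 TPM in WT and 830745 to 833332 TPM in S127A, and were left as deposited. With limma 3.58.1 in R 4.3.3, log2(TPM + 1) was fitted with genotype as the only term and a variance trend, over the 10348 genes with a mean of at least 1 TPM. Tests were two-sided, with Benjamini-Hochberg adjustment over all these genes and a threshold of 0.05. The code was tested on simulated data.

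The members, the partner lists and the marker lists were chosen with earlier results of these data known. Values of each library are printed for members changed at least 2-fold with a group mean of at least 5 TPM, and for a panel of main carriers of each family, and from each partner list the 4 genes with the lowest adjusted p are named. Gene positions are from GENCODE on mm10, matched by symbol for 112 members, with SLC22A25 unmatched. Promoters are RefSeq's for GRCm38.p6. Alternatives were the pseudocount, the filter, 3 scalings, limma without trend or robust, identical symbols counted once, a block by replicate number and leaving out each library. Correlations of deviations between libraries of the same number were 0.117, 0.0174 and 0.0279, so the numbers were not taken to pair the samples.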

Additional observations from a re-analysis of the deposited data

How the results depend on the processing

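Over the 56 tested members and 17 alternatives, 911 of 941 values kept their direction and their side of the threshold, 16 lost the call, 5 gained it and 9 changed sign, none of them past the threshold under either setting. The sign changes fell on 3 members. The log2 difference of SLC2A8 (−0.01) was 0.0767 with trimmed mean scaling, 0.142 after quantile normalization and 0.0400 when totals were made equal, and −0.0716 to 0.051 on leaving out each library. SLC35C1 ranged over −0.0309 to 0.0779 and SLC35E3 over −0.0168 to 0.041 on leaving out each library. The 21 calls lost or gained fell on 8 members, SLC35D1, SLC16A4, SLC35A1, SLC35E1, SLC35B1, SLC16A8, SLC5A6 and SLC22A5, and their causes were not tested. Without the filter 35 members were higher, 32.4% of the 108 then tested against 33.9% of all genes, and 31 lower, 28.7% against 39.7%. At least 2-fold, 8 were then higher (7.41%, against 11.6% of all genes) and 12 lower (11.1%, against 15.1%). With a mean of at least 5 TPM, 4 members were higher at least 2-fold, 8.89% of the 45 then tested against 13.8% of all genes. Under that filter 10 were lower at least 2-fold, 22.2% against 17.7%. These filters change how many genes are tested. Leaving out each library in turn gave 23 to 24 members higher and 27 to 28 lower, 8 to 10 higher and 11 to 12 lower at least 2-fold, and over all genes 4084 to 4125 higher, 5052 to 5096 lower, 1596 to 1615 higher at least 2-fold and 2050 to 2066 lower at least 2-fold. With the replicate number as a block, 23 members were higher and 27 lower, SLC35D1 being lost (adjusted p = 0.0678 by limma). Depth is unknown, so whether members near 0 TPM were absent or below detection cannot be told apart.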

Other observations

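KHK, the kinase that commits fructose to metabolism, was higher in the S127A libraries in which the fructose carrier SLC2A5 was near 0. It held 0.91, 1.14 and 2.13 TPM in WT against 12.7, 15.0 and 14.5 TPM in S127A (log2 shift 2.69, adjusted p = 1.98e-08 by limma). KHK was picked after its values were seen. HK1 and HK2, the hexokinases that trap glucose, fell from 110 ± 1.9 to 48.7 ± 0.784 TPM and from 78.2 ± 3.86 to 47.5 ± 0.669 TPM. ACAT1, which splits acetoacetyl-CoA, fell from 165 ± 4.38 to 33.1 ± 1.93 TPM, whereas PDHA1, a subunit of pyruvate dehydrogenase, rose from 126 ± 1.06 to 216 ± 2.25 TPM. In carnitine-dependent fat oxidation CPT1A rose from 15.8 ± 0.626 to 32.97 ± 2.41 TPM and CPT2 fell from 33.4 ± 1.26 to 11.2 ± 1.62 TPM, beside a carnitine carrier SLC22A5 that did not pass. These genes were also picked after their values were seen.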
